A study of Mus musculus with 6 samples.

Results

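The genes described here encode 10 intracellular proteins that receptor tyrosine kinases use to pass a signal on: Gab1, Gab2, Grb2, Shc1, Sos1, Sos2, Ptpn11, Crk, Crkl and Cbl. They were chosen by name for that role, with earlier results of these data known, and all 10 were found among the 28212 genes measured. The cells were of LD-1, a mouse cell line. It derives from cholangiocarcinoma, a malignancy of bile ducts. In 3 libraries the cells had been stimulated with hepatocyte growth factor (HGF) and 3 libraries were controls. The stated purpose of the study was to assess how HGF changes gene expression in these cells. The labels give neither dose nor time of exposure, nor what the controls received, and they name the material both as this line and as tissue, with adipose RNA mentioned in the protocol. Whether replicates came from independent cultures is not said. Each p-value below therefore reflects only library-to-library spread, possibly technical.

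HGF binds the receptor Met, which then phosphorylates tyrosines in its own tail. The adaptor Grb2 binds such tyrosines and brings the exchange factor Sos, which loads RAS with GTP and so starts the ERK kinase cascade, and Shc proteins offer Grb2 a further docking point. Gab proteins are large docking proteins, and Gab1 is the one best known for Met, which it binds both directly and through Grb2. Once phosphorylated, Gab1 holds SHP2 (the phosphatase encoded by Ptpn11, which prolongs RAS and ERK signalling), PI3 kinase and the Crk adaptors. Cbl is a ubiquitin ligase that marks activated receptors, Met among them, for degradation.

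Total counts were 57073866 to 66302502 per library. The lowest count of any of the 10 genes in a library was 885. The keratins Krt8, Krt18 and Krt19 and Spp1, markers of bile duct epithelium, were abundant in all libraries (FPKM from 61.1 for Krt19 to 618 for Krt8). The summed FPKM of the 8 bile duct markers was 1406 to 1416 with HGF and 753 to 783 in controls. Sox9, of the same list, was at 3.18 to 3.76 with HGF and 1.43 to 1.64 in controls, and fibroblast markers summed to 3.01 to 3.29 and 1.97 to 2.27. Krt7, Epcam and Cdh1, which mark the same epithelium, were low in all libraries, and the groups overlapped for each. Epcam was at an FPKM of 0.753 to 1.205 with HGF and 1.147 to 1.854 in controls. Krt7 was at 0.0567 to 0.0993 and 0.0335 to 0.123, and Cdh1 at 0.217 to 0.263 and 0.0334 to 0.245. Control 3 stood apart. Its summed FPKM over 5 skeletal muscle markers was 158 against 1.99 to 3.57 in the other libraries. Over 6 macrophage markers it was 107, against 39.8 and 43.9 in Control 1 and 2 and 63.5 to 67.6 with HGF. Adipocyte markers, of which 2 were in the table, summed to at most 0.494. Hepatocyte markers summed to 7.00 to 12.3 with HGF and 0.607 to 2.11 in controls, and no gene of these lists was at 0 in all libraries. The part of such transcripts in the results below was not tested. Values without Control 3 are given beside the fitted changes of the 10 genes and Met. For lists of related genes, counts without Control 3 are given where they differ. In bulk RNA, fewer cells of a type and less RNA per cell cannot be told apart.

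Of the 10 genes, 1 rose with HGF (Gab2) and 3 fell (Gab1, Sos2 and Ptpn11) at an adjusted p of 0.05 in edgeR's quasi-likelihood test, adjusted over all 17322 genes tested. The other 6, Grb2, Shc1, Sos1, Crk, Crkl and Cbl, missed the threshold. Over all tested genes 38.5% passed, 19.1% higher and 19.3% lower with HGF, so 4 of 10 is close to the background. The median log2 fold change (HGF minus control) was -0.15 over the 10 genes and -0.02 over all genes tested. After a correction for GC content these medians were -0.03 and 0.01. Gab2 and Gab1 changed most, at log2 0.38 and -0.35, and without Control 3 Gab1 was the farther from 0 (-0.43 against 0.30). Without Control 3, 1 gene rose and 5 fell, the added genes being Crk and Crkl. In that fit 3053 of all 17961 tested genes rose and 2868 fell. Without Control 2 none of the 10 passed, with Gab1 at adjusted p = 0.0524 and Gab2 at 0.0534 (edgeR). Without HGF 2, and likewise without Control 1, only Gab1 and Gab2 passed. Without HGF 1 Crkl took the place of Sos2, and without HGF 3 Crk took that of Ptpn11. Over all genes, the fits that left out a library called 2553 to 3174 higher and 2340 to 3054 lower, of 17899 to 18038 tested.

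**Figure D1:**
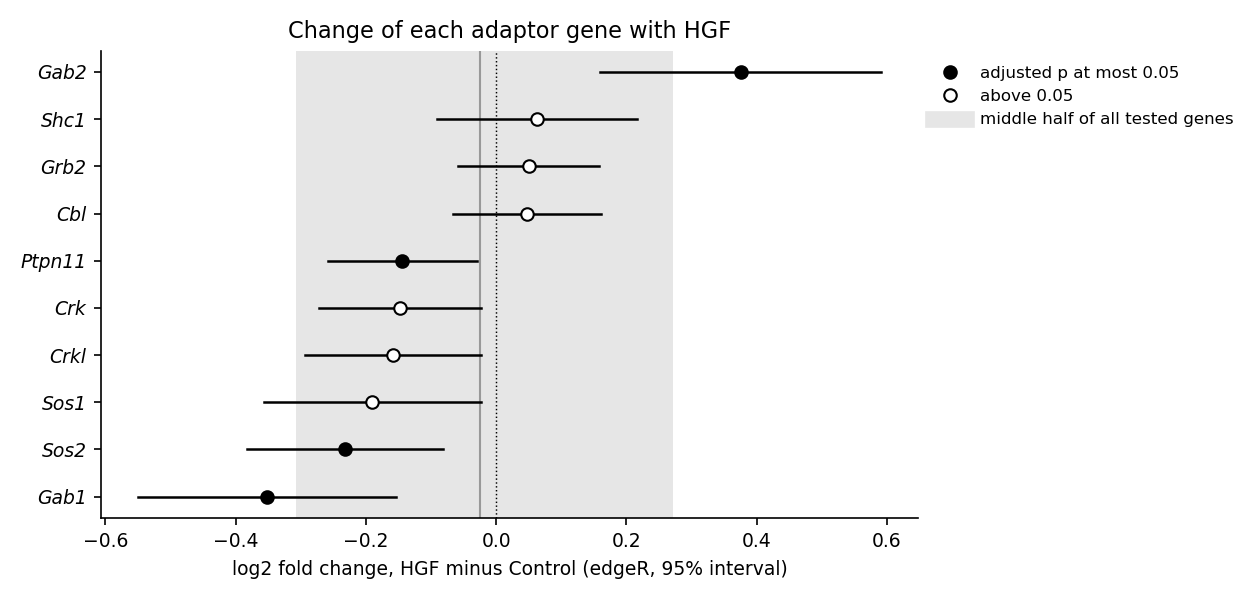
Log2 fold change of each gene (HGF minus control, edgeR, x axis) with its 95% interval. Filled points passed adjusted p 0.05, the grey line is the median of all tested genes (-0.02) and the band runs from their 25th to their 75th percentile (-0.31 to 0.27). Gab2 and Gab1 lie at opposite ends, outside that band.

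Transcript levels, compared per length as FPKM (fragments per kilobase of transcript, scaled to library size), spanned a wide range. In every library the most abundant of the 10 genes was 14.7 to 21.6 times the least abundant. In controls the order was Shc1, Grb2, Crk, Ptpn11, Crkl, Gab1, Cbl, Sos1, Sos2 and Gab2. Neighbours in this order whose control libraries overlapped were Shc1 with Grb2, Gab1 with Cbl, and Sos1 with Sos2. The small adaptors were thus the abundant ones, with control means of 51.2 ± 3.49 for Shc1 and 46.6 ± 1.43 for Grb2 (SD, n = 3). The docking proteins and exchange factors were scarce, between 2.53 ± 0.321 for Gab2 and 6.04 ± 0.742 for Gab1. With HGF the first 5 genes kept their order, Gab1 lay below Cbl with libraries that no longer overlapped it, and Gab2 was level with Sos2.

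**Figure D2:**
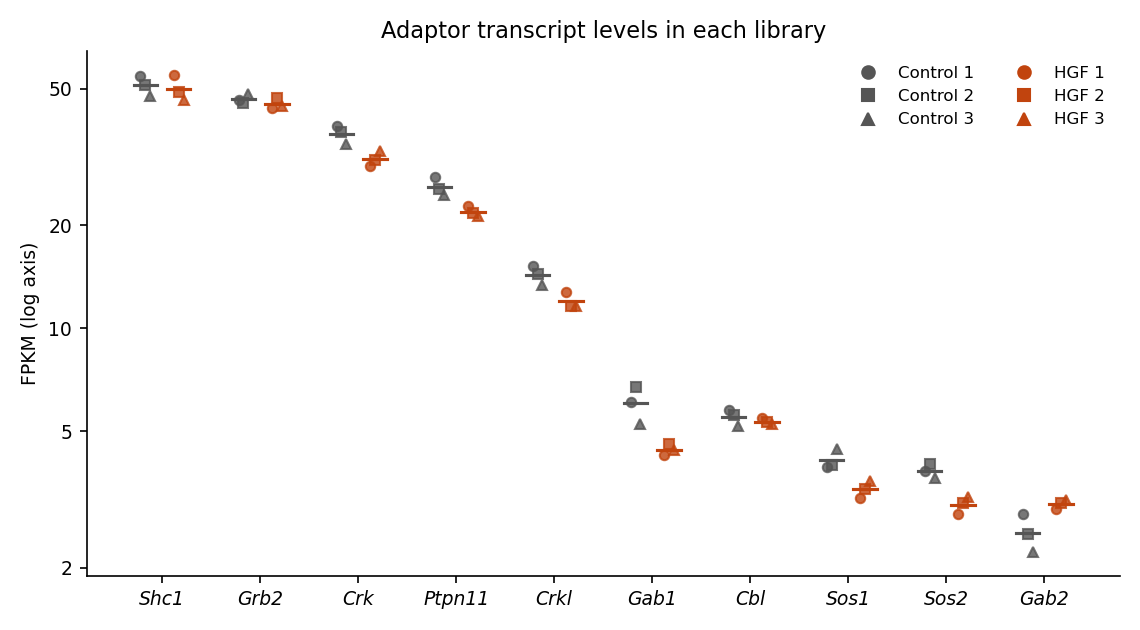
FPKM (y axis, log scale) of the 10 genes in each of 3 control and 3 HGF libraries, with the group mean as a bar and genes ordered by control mean. Gab1 lies lower and Gab2 higher with HGF than in every control, while the points of Shc1, Grb2 and Cbl mix.

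The docking protein genes moved in opposite directions. Gab1 (ENSMUSG00000031714, chromosome 8, 80764438 to 80880519, minus strand) had an FPKM of 4.27, 4.58 and 4.42 in HGF 1 to 3 and of 6.09, 6.75 and 5.27 in Control 1 to 3. All HGF libraries were below all controls, and Control 3 was the nearest to them. It fell by 21.7% (log2 -0.35 ± 0.09 SE, 95% interval -0.55 to -0.15, edgeR adjusted p = 0.0120). The value was -0.43 without Control 3 and -0.27 without Control 2, the highest control (edgeR adjusted p = 0.00354 and 0.0524). Gab2 (ENSMUSG00000004508, chromosome 7, 97081586 to 97308946, plus strand), the paralog best known from haematopoietic cells, had an FPKM of 2.97, 3.08 and 3.16 with HGF and of 2.87, 2.503 and 2.22 in controls. Again the groups did not overlap, with Control 3 the farthest from the HGF libraries. It rose by 29.7% (log2 0.38 ± 0.09, 95% interval 0.16 to 0.59, edgeR adjusted p = 0.0132), and without Control 3 the value was 0.30 (adjusted p = 0.0351). With limma on log2(FPKM + 0.1) Gab2 missed the threshold (0.28 on that scale, adjusted p = 0.0514), as it did without an FPKM filter (0.21 on log2(FPKM + 1), adjusted p = 0.131). Neither limma fit used TMM scaling, and with total counts Gab2 was at 0.28 (edgeR adjusted p = 0.042).

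A ratio of 2 genes within a library does not depend on how libraries are scaled to each other. Gab1 exceeded Gab2 1.43, 1.49 and 1.40 times in HGF 1 to 3 and 2.13, 2.70 and 2.37 times in Control 1 to 3. Every HGF ratio was thus below every control ratio. Of the summed Gab1 and Gab2 FPKM, Gab1 made up 59.0% ± 0.724 with HGF and 70.4% ± 2.47 in controls (SD, n = 3). The log2 ratio differed by -0.73 (0.53 ± 0.04 with HGF, 1.25 ± 0.17 in controls, SD, n = 3, two-sided exact permutation p = 0.10, the smallest that 3 against 3 can give, and 0.30 adjusted over the 3 ratios tested). Leaving out any single library kept it between -0.81 and -0.64, with -0.73 without Control 3. The summed Gab FPKM was 7.24, 7.66 and 7.58 with HGF and 8.96, 9.25 and 7.49 in controls, so the groups overlapped through Control 3.

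**Figure D3:**
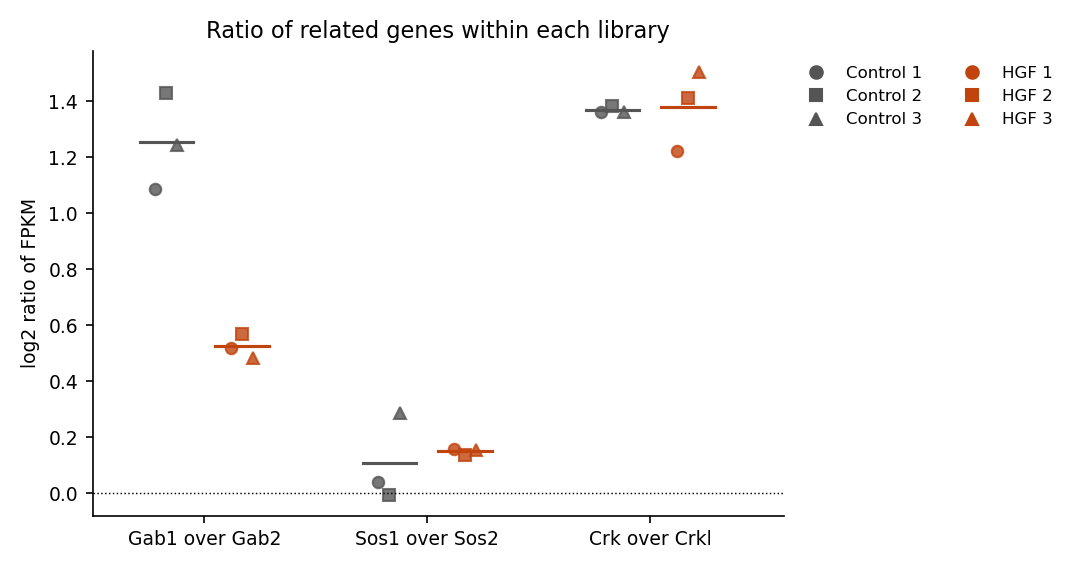
Log2 ratio of FPKM (y axis) of Gab1 over Gab2, Sos1 over Sos2 and Crk over Crkl in each library, with group means as bars. The HGF libraries lie below the controls for Gab1 over Gab2 (means 0.53 and 1.25), and the groups overlap for the other ratios.

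The exchange factor genes were both lower in FPKM with HGF. Sos2 (ENSMUSG00000034801, chromosome 12, 69583762 to 69681852, minus strand) had an FPKM of 2.87, 3.08 and 3.21 with HGF and of 3.84, 4.01 and 3.65 in controls, with no overlap. It fell by 14.9% (log2 -0.23 ± 0.07, edgeR adjusted p = 0.0223), and by 0.26 on the log2 scale without Control 3 (adjusted p = 0.0315). It missed the threshold without HGF 1, HGF 2, Control 1 or Control 2 (edgeR adjusted p = 0.0754, 0.0687, 0.0621 and 0.0924). Sos1 (ENSMUSG00000024241, chromosome 17, 80393751 to 80480453, minus strand), the paralog with the wider role in RAS activation downstream of growth factors, had an FPKM of 3.20, 3.39 and 3.58 with HGF and of 3.95, 3.996 and 4.45 in controls. The groups did not overlap, but the fitted change missed the threshold (log2 -0.19 ± 0.07, 95% interval -0.36 to -0.02, edgeR adjusted p = 0.0700). It was -0.12 without Control 3, the control with the most Sos1, and -0.01 after a correction for GC content (adjusted p = 0.220 and 0.958). Its 3' end overlaps Arhgef33 on the opposite strand, which had at most 20 counts in any library. Sos1 over Sos2 was 1.12, 1.10 and 1.11 with HGF and 1.03, 0.997 and 1.22 in controls, with overlap through Control 3. The difference was 0.04 on the log2 scale (exact permutation p = 0.70), and -0.01 without Control 2. Without Control 3 it was 0.13 and the groups did not overlap (exact permutation p = 0.10, the smallest possible). Set against the adaptor that carries them, Grb2 FPKM was 7.23, 7.26 and 6.56 times the summed Sos FPKM with HGF and 5.95, 5.66 and 5.94 times in controls. That ratio, chosen after its values were seen, was higher in every HGF library and is given without a test. Grb2 over the summed Gab FPKM was 6.06, 6.13 and 5.88 with HGF and 5.18, 4.90 and 6.42 in controls, with overlap through Control 3.

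Ptpn11 (ENSMUSG00000043733, chromosome 5, 121130533 to 121191397, minus strand) was expressed well above the exchange factors. Its FPKM was 22.7, 21.6 and 21.2 with HGF and 27.6, 25.4 and 24.4 in controls, so every HGF library was lower. It fell by 9.53% and only just passed the threshold (log2 -0.14 ± 0.05, 95% interval -0.26 to -0.03, edgeR adjusted p = 0.0495). The adjusted p was 0.0586 with DESeq2, 0.0896 with median-of-ratios scaling and 0.0359 without Control 3, and over 18 alternatives it ran from 0.00334 to 0.175.

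The genes of the Crk adaptors, which link docking proteins to an exchange factor for RAP GTPases and to DOCK1, had values close to that of Ptpn11 but missed the threshold. Crk (ENSMUSG00000017776, chromosome 11, 75679259 to 75706065, plus strand) had an FPKM of 29.8, 31.0 and 32.9 with HGF and of 39.0, 37.5 and 34.4 in controls. Crkl (ENSMUSG00000006134, chromosome 16, 17451987 to 17487434, plus strand) had 12.8, 11.6 and 11.6 with HGF and 15.2, 14.4 and 13.4 in controls. In FPKM no HGF library reached a control for either gene. After TMM scaling, which corrects for differences in library composition, they overlapped: Crk was at 162, 169 and 179 CPM (counts relative to the scaled library size) with HGF against 199, 189 and 178. The fitted log2 fold changes were -0.15 ± 0.05 for Crk and -0.16 ± 0.06 for Crkl (edgeR adjusted p = 0.0624 and 0.0647), and -0.19 and -0.20 without Control 3 (adjusted p = 0.0300 and 0.0482). With a GC correction Crk was at -0.05 (adjusted p = 0.419) and Crkl at -0.15 (adjusted p = 0.0715). Crk over Crkl was 2.33, 2.66 and 2.84 with HGF and 2.57, 2.61 and 2.57 in controls, a log2 difference of 0.01 (exact permutation p = 0.90). It was -0.05 without HGF 3 and 0.01 without Control 3. Without HGF 1 it was 0.09 and the groups did not overlap (exact permutation p = 0.10).

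Grb2, Shc1 and Cbl gave no call, and their intervals bound how large a change could have been missed. Grb2 (ENSMUSG00000059923, chromosome 11, 115644045 to 115708597, minus strand) had an FPKM of 43.9, 47.0 and 44.6 with HGF and of 46.4, 45.3 and 48.1 in controls, with mixed groups. The 95% interval of its fold change was 0.960 to 1.12 (edgeR adjusted p = 0.455). Shc1 (ENSMUSG00000042626, chromosome 3, 89418443 to 89430015, plus strand), whose 10 transcripts in the table share 1 value per library, had 55.0, 48.9 and 46.3 with HGF and 54.6, 51.4 and 47.6 in controls. The libraries of each group spread over nearly the same range, and the interval was 0.939 to 1.16 (adjusted p = 0.507, edgeR). Cbl (ENSMUSG00000034342, chromosome 9, 44142976 to 44234049, minus strand) had 5.46, 5.33 and 5.24 with HGF and 5.77, 5.59 and 5.20 in controls, also overlapping, with an interval of 0.955 to 1.12 (adjusted p = 0.494, edgeR). Without Control 3 the log2 fold changes of Grb2, Shc1 and Cbl were 0.08, 0.02 and 0.01 (edgeR adjusted p = 0.243, 0.853 and 0.869). The sign of these 3 small values is not fixed. All 3 were above 0 with TMM (log2 0.05, 0.06 and 0.05) and below 0 when libraries were scaled by total counts (-0.05, -0.04 and -0.05).

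Scaling mattered for changes of this size. With total counts the median of all tested genes was at -0.13 in place of -0.02, and 32.3% of calls were higher in place of 49.8%. On that scale 6 of the 10 genes were called lower and Gab2 higher. Over all 17322 tested genes, 4941 were called lower and 2361 higher with total counts, in place of 3349 and 3316 with TMM. In TMM-scaled CPM the HGF and control libraries of 5 of the 10 genes did not overlap, against 51.4% of all tested genes. In FPKM they did not overlap in 7 of 10, against 53.5%.

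**Figure D4:**
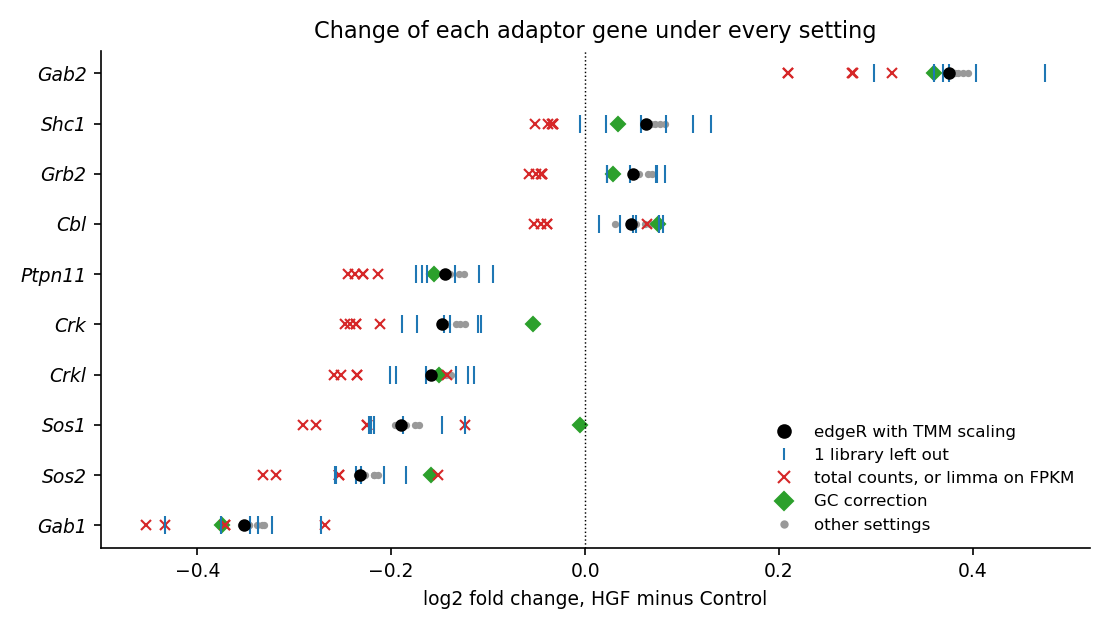
Log2 fold change (HGF minus control, x axis) of each gene in the edgeR fit with TMM scaling and under 18 alternatives. Gab1 stays between -0.45 and -0.27 and Gab2 between 0.21 and 0.47, whereas Grb2, Shc1 and Cbl cross 0, and the GC correction moves Sos1 to -0.01.

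The sequences just upstream of the 3 genes that fell are shown because RNA of these genes changed in the same direction. Each line holds the 250 bases before the RefSeq start site (GRCm38.p6, read 5′ to 3′ on the gene's strand), which is also the gene's start in the deposited table. The windows are chr8:80880520-80880769 for Gab1, chr12:69681853-69682102 for Sos2 and chr5:121191398-121191647 for Ptpn11, all on the minus strand. Capitals mark matches on either strand to any of 5 motifs: TGANTCA (AP-1), TGACGTCA (CRE), CCGGAAG (ETS), CACGTG (E-box) and GGGCGG (GC box).
Gab1: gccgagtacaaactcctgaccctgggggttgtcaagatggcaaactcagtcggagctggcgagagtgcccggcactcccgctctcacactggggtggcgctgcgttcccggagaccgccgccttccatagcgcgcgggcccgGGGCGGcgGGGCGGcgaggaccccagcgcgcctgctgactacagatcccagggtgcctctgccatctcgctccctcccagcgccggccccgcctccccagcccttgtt
Sos2: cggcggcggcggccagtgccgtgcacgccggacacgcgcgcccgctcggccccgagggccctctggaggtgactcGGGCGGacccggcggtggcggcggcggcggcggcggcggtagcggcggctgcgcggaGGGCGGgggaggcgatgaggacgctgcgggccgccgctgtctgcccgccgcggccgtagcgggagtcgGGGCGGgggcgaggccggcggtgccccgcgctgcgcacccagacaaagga
Ptpn11: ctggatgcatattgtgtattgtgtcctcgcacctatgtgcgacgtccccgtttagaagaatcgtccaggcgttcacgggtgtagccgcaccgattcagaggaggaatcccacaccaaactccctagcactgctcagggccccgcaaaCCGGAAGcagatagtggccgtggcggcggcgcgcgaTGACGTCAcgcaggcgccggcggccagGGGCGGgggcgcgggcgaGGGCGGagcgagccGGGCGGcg
All 3 windows held the GC box, with 2 matches in Gab1, 3 in Sos2 and 3 in Ptpn11, and 32.7% of 32851 RefSeq windows of this length hold it. It was also found for Shc1, Crk and Cbl, which gave no call. G and C made up 70.8%, 82.8% and 66.8% of the printed windows of Gab1, Sos2 and Ptpn11. The share of windows of like composition that hold the GC box was not taken. Ptpn11 also held the CRE letters from 67 to 60 bases before the start and the ETS letters from 103 to 97, found in 1.55% and 6.91% of all windows. Of the 9 genes of the group with a RefSeq window, Crkl was the other with a CRE match, and neither AP-1 nor E-box letters were found in the 3 windows printed, where no matches overlapped each other. A match describes letters only and is not a binding site.

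Other genes of the same signalling steps, taken from 8 lists, went both ways. Of 79 tested genes 22 rose and 12 fell (edgeR, adjusted p 0.05), with a median log2 fold change of 0.05. That is 27.8% higher and 15.2% lower, beside 19.1% and 19.3% of all tested genes. The same shares stand beside the count of each list below from all libraries, and no list was tested against them. Counts without Control 3 stand beside 3053 higher and 2868 lower of the 17961 genes tested in that fit. Without Control 3, 17 of the 79 rose and 12 fell, 28 of them called in both fits, and all genes named from these lists kept their call. Among further docking proteins 1 of 10 rose and 3 fell (median -0.12), or 1 and 2 without Control 3, with Irs2, an insulin receptor substrate, at -0.61 ± 0.07 and Dok7, known from muscle synapses, at -0.98 ± 0.21 and low level. Among other SH2 and SH3 adaptors 4 of 12 rose and 1 fell (median 0.29), or 3 and 1 without Control 3. Grb10, an adaptor that restrains insulin receptor signalling, rose by 0.50 ± 0.05, and Sh2b1, an adaptor of JAK2 and receptor kinases, fell by 0.30 (SE 0.06). Of 6 CBL relatives and partners 3 rose and 1 fell (median 0.32), so that Sh3kbp1, the Cbl partner in receptor endocytosis also called CIN85, rose by 0.69 ± 0.06 and Ubash3b, a phosphatase that binds Cbl, by 0.71 ± 0.08, while Cbl itself gave no call.

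Lists of genes further down the cascade also held changes in both directions. Of 12 genes of the RAS to ERK core 4 rose and 4 fell (median -0.02), or 4 and 5 without Control 3. Mapk3, which encodes the kinase ERK1, rose by 0.40 ± 0.04 to an FPKM of 120 ± 3.92, and Hras rose by 0.48 ± 0.06. Of 9 RAS GTPase-activating proteins and other exchange factors only Rasa3, a RAS and RAP GTPase-activating protein, passed, at 0.28 ± 0.05. Of 12 Crk partners 5 rose and 1 fell (median 0.06), or 2 and 1 without Control 3, with the kinase gene Abl2 at 0.58 ± 0.05 and the small GTPase gene Rap1b at 0.29 ± 0.05. Of 11 PI3 kinase and PLC-gamma effectors 1 rose and 2 fell (median -0.15), or 0 and 2 without Control 3. Pik3r3, a regulatory subunit, was at -0.80 ± 0.09 and Pik3cb, a catalytic one, at -0.25 ± 0.05. Of 7 phosphatases related to SHP2 3 rose and none fell (median 0.19), among them Ptpn6, which encodes the SHP2 paralog SHP1, by 0.58 ± 0.07 and Ptpn1 by 0.19 ± 0.04. The receptor gene Met had an FPKM of 5.93, 6.65 and 6.38 with HGF and of 6.13, 6.36 and 5.74 in controls, and its change missed the threshold (log2 0.15 ± 0.06, edgeR adjusted p = 0.0819, and 0.12 with adjusted p = 0.221 without Control 3).

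**Figure D5:**
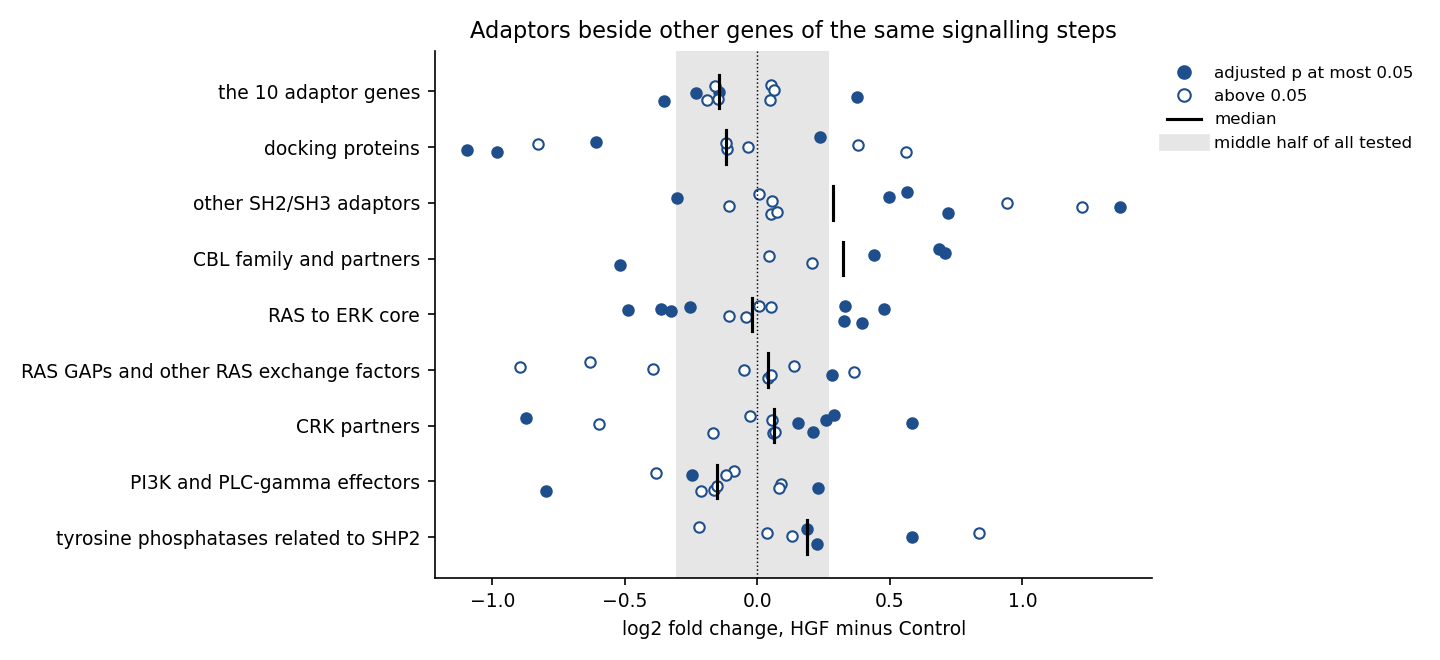
Log2 fold change (HGF minus control, x axis) of the 10 adaptor genes and of the tested genes of 8 related lists, with a bar at each list's median. Filled points passed adjusted p 0.05 (edgeR), and the band is the 25th to 75th percentile of all tested genes. The medians run from -0.15 to 0.32, and most lists hold filled points on both sides of 0.

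The member with the smallest p was Gab1. Among 7681 other genes whose higher group averaged an FPKM of 5 or more, those whose log2 CPM, centred on the gene's mean, lay nearest to it over the 6 libraries were Gm21811, Eef1akmt2 and AW549877. Their root mean square differences from Gab1 were 0.04, 0.05 and 0.05 on the log2 scale. Their own log2 fold changes were -0.29, -0.31 and -0.42.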

How the data were processed

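Per the labels' protocols, polyadenylated RNA was selected and its paired-end libraries were read on a NovaSeq. The deposited table holds, per the file headers, a count and an FPKM for each gene and library. The deposited counts are whole and were taken as the authors gave them. The deposited FPKM are proportional to the counts, with a fixed length for each gene (median coefficient of variation of their ratio 0.036% over 10609 genes), so they hold no isoform information. Tools named in the submitters' processing notes are StringTie 1.3.0, HISAT2 2.0 and Bowtie 0.12.2, and the build named is mm8. What each did, which annotation was used and whether strand was used is not given in the sources used here. Coordinates are printed as deposited, and for 8 of the 10 genes they equal those of GENCODE M21 (GRCm38). Crk and Shc1 end elsewhere there.

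Groups came from sample titles and columns were matched by name. Counts were filtered with filterByExpr and scaled with TMM. The factors split by group, at 0.9627 to 0.9675 with HGF and 1.0279 to 1.0427 in controls. The groups were compared by a two-sided quasi-likelihood test (edgeR 4.0.16, R 4.3.3). Adjustment was by Benjamini-Hochberg over 17322 genes. The standard error is the log2 fold change divided by the square root of F. Alternatives used DESeq2 1.42.0, limma 3.58.1 on log2(FPKM + pseudocount), other filters and scalings, counts divided by 4, a replicate block and each library left out. A pseudocount understates changes of low genes. The limma fits took FPKM without TMM scaling, and only the quantile-normalised fit was scaled further between libraries. Corrections for GC content and transcript length, and the fit of Met and the related lists without Control 3, were added after seeing the data. The main fit, DESeq2 and limma with a pseudocount of 1 were run on simulated data in which few genes changed. Far more genes were called in the real data, so the simulation cannot test the scaling. The other alternatives were not simulated. No library was a duplicate of another: chi-square over degrees of freedom was 2.73 to 7.08 for counts divided by 4, beyond sampling noise. The members, the 8 related lists and the markers were chosen with earlier results of these data known. Named genes were all members, Met, the 3 genes nearest to the member with the smallest p, and from each list up to 2 past the threshold with the smallest adjusted p. Sequences are from RefSeq, where 9 of 10 members matched.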

Additional observations from a re-analysis of the deposited data

How the results depend on the processing

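Of the 18 alternatives, Gab1 stayed below 0 in all 18 and was called in 17, and Gab2 stayed above 0 in all 18 and was called in 15. Sos2 was called in 14, Ptpn11 in 10, Crk and Crkl in 8 each and Sos1 in 4. The number of the 10 genes called lower was 6 with total counts, with limma on log2(FPKM + 1) and with limma on log2(FPKM + 0.1). Over all genes these fits called 4941 of 17322, 4244 of 11760 and 4215 of 11760 lower, in place of 3349 of 17322. Of the 10 genes, 5 were called lower with counts divided by 4, with the replicate block and with limma without an FPKM filter. Over all genes the lower calls of these fits were 3497 of 14074, 3440 of 17322 and 3841 of 28212. None of the 10 was called higher (0) with limma without an FPKM filter or with log2(FPKM + 0.1). Over the fits that left out a library, 0 to 5 of the 10 genes were called lower and 0 to 1 higher. Over all 17899 to 18038 genes tested in them, 2340 to 3054 were called lower and 2553 to 3174 higher. With limma, 2061, 2050 and 2065 of all tested genes were called higher with pseudocounts of 1 and 0.1 and without a filter, in place of 3316. These fits tested 11760, 11760 and 28212 genes in place of 17322, so the shares were 17.5%, 17.4% and 7.32% in place of 19.1%. Of calls, 32.7% were higher with a pseudocount of 1 in place of 49.8%. These limma fits used no TMM scaling, and total counts in edgeR gave 32.3%.

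Signs turned for genes and ratios that gave no call. With total counts, limma at pseudocounts of 1 and 0.1, limma without a filter and quantile-normalised FPKM, Grb2 was at -0.0507, -0.0445, -0.0454, -0.0445 and -0.0581, and Shc1 at -0.0379, -0.0336, -0.0342, -0.0336 and -0.0514. Cbl was at -0.0529, -0.0396, -0.0458 and -0.0396 in the first 4 of these fits. Shc1 was at -0.005 without HGF 1. When a library was left out, Gab1 over Gab2 ranged from -0.81 to -0.64, Sos1 over Sos2 from -0.0115 to 0.13 and Crk over Crkl from -0.0516 to 0.0897. Crk over Crkl was at -2e-04 with FPKM + 1. The cause was not tested.

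No sign of pairing by replicate number was seen: same-numbered libraries had correlations of their deviations from the group mean of 0.06, -0.03 and 0.04. With 3 libraries per group such correlations cannot exclude pairing. With the replicate block the genes called lower were Gab1, Sos1, Sos2, Ptpn11 and Crkl, 5 in place of 3, and all calls numbered 6846 in place of 6665.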
